A study of Mus musculus with 8 samples.

Results

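Mfge8 and Edil3, the ligands Gas6 and Pros1, and the TAM receptors Axl, Mertk and Tyro3 were compared between skeletal stem cells of the spine and of the long bones. These 7 genes were taken by name from the 22053 rows of the deposited protein-coding table, and each name occurred in 1 row. RNA was sequenced in 8 bulk libraries of sorted cells from wild-type (WT) mice at postnatal day 10. Of these, 4 came from the spine and are labelled candidate vSSC (vertebral skeletal stem cells), and 4 came from femur and tibia and are labelled lbSSC (long bone skeletal stem cells). In each group replicates 1 and 2 were male and replicates 3 and 4 were female. All 8 were sorted for 1 surface phenotype, CD31-TER119-CD45-Thy-6C3-CD200+CD105-, so the groups differ by skeletal site and carry no transgene or treatment named in the labels. The samples are labelled as biological replicates without the number of animals in each, so a p-value here reflects only how these samples vary.

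A dying cell exposes the lipid phosphatidylserine on its outer surface, and bridging proteins link it to receptors on the cell that engulfs it. Mfge8 (lactadherin) and its paralog Edil3 (Del-1) bind phosphatidylserine through discoidin domains and bind αv integrins through an RGD motif. Gas6 and Pros1 (protein S) bind it through a vitamin K-dependent Gla domain and activate the receptor tyrosine kinases Tyro3, Axl and Mertk, the TAM family, with Gas6 binding all of these and Pros1 binding Tyro3 and Mertk. The study is known for Mfge8 as a factor of vertebral stem cells that attracts tumour cells.

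Gas6 and Axl were lower in vSSC and Mfge8 was higher, and the promoters of these genes are shown because they changed between the sites in opposite directions. Each is the RefSeq sequence of build GRCm38.p6 from 250 bases before to 50 after the start of the transcript, 300 bases in all, written 5′ to 3′ on the strand of the gene. Capitals mark the GC box, GGGCGG or its reverse complement.
Gas6, chr8:13494486-13494785, minus strand: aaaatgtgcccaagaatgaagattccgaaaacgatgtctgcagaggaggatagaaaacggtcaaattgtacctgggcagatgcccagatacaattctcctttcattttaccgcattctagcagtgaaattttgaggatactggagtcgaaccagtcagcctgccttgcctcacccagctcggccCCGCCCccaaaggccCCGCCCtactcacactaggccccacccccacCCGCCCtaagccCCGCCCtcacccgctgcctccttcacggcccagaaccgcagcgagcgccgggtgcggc
Axl, chr7:25788684-25788983, minus strand: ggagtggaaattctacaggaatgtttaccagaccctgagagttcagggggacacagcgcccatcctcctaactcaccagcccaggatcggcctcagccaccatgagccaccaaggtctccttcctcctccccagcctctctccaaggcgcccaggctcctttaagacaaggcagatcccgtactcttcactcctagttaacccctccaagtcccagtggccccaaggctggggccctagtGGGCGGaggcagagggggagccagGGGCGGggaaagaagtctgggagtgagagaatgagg
Mfge8, chr7:79149011-79149310, minus strand: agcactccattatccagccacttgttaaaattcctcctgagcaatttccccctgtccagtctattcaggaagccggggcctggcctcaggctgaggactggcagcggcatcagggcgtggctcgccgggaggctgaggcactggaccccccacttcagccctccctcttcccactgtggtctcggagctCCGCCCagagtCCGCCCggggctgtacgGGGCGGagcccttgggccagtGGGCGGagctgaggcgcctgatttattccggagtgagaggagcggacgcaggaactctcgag
The table held a promoter for 6 of the 7 genes, all but Edil3. GC boxes numbered 4 for Gas6, 2 for Axl and 4 for Mfge8, and also 5 for Pros1, 4 for Mertk and 6 for Tyro3, some of them overlapping one another in Pros1 and Tyro3. Of 32851 promoters of this length, 35.7% held a GC box on either strand. The 6 promoters were 58.3% to 73.3% G and C, at percentiles 66.3 to 94.5 of all promoters. The letters TATAAA (in 13.6% of all promoters), CCAAT (37.4%) and TGANTCA (7.81%) were found on neither strand in any of the 6. TGTGGT, in 16.8% of all, was present in Mfge8 at base 76 before the start, and GGAATG, in 14.7% of all, was present in Axl at base 233 before the start, with no overlap with a GC box. Genes that changed in opposite directions both held GC boxes.

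Expression is given in FPKM, a fragment count scaled to transcript length and to the size of the library, so levels of different genes can be set side by side. The FPKM of a library summed to 460302 to 571869, and 10337 to 10753 genes reached 1 FPKM. Within a group the libraries correlated at Spearman's rho of 0.960 to 0.982 across genes. Ribosomal protein genes took 18.4% to 21.5% of the sum in vSSC and 15.7% to 18.5% in lbSSC. Of the genes of the sorting gate, Cd200 measured 109.3 ± 22.5 FPKM in vSSC and 101.0 ± 28.1 in lbSSC (SD, n = 4 each), while Pecam1 (CD31), Ptprc (CD45) and Thy1 were under 1 FPKM in every library. Eng (CD105) reached at most 1.17 FPKM and Enpep (6C3) at most 1.76 FPKM. Chondrocyte markers were abundant at both sites, with summed levels of 15126 to 23982 FPKM in vSSC and 16496 to 26521 in lbSSC.

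All 7 genes were expressed at both sites and passed the filter for testing, which asked for 1 FPKM or more in 4 or more libraries. Differences are given as vSSC minus lbSSC on the scale of log2(FPKM + 1), fitted with limma over all 10729 genes that passed, and a gene was called where its p, adjusted after Benjamini and Hochberg, was under 0.05. Of the 7, 3 were called, Mfge8 higher and Gas6 and Axl lower in vSSC, where 23.5% of all tested genes were called, 14.3% higher and 9.17% lower. For 4 of the 7, the called genes and Pros1, the groups did not overlap, as was so for 25.8% of all tested genes. The median difference of the 7 was -0.26, against 0.08 over all tested genes. In these bulk samples, fewer cells of a type and less RNA per cell cannot be told apart.

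**Figure D1:**
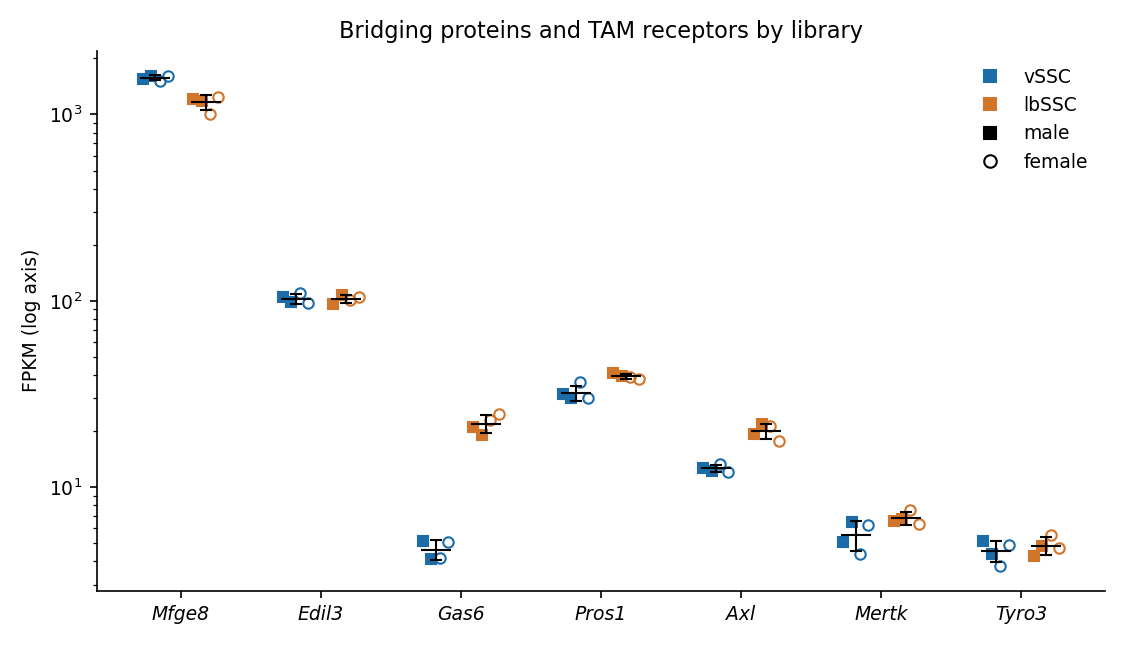
FPKM of the 7 genes in each library (log axis), vSSC in blue and lbSSC in orange, with filled squares for male and open circles for female libraries and black bars for the mean ± SD of 4 libraries. Mfge8 lies at 1006 FPKM or more in every library, Gas6 is near 5 FPKM in vSSC and near 22 in lbSSC, and Edil3 lies at the same height at both sites.

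Mfge8 (ENSMUSG00000030605, chr7:79133768-79149060, minus strand, GRCm38) was the most abundant of the 7 in all 8 libraries. It measured 1559.7, 1610.5, 1508 and 1614 FPKM in vSSC replicates 1 to 4 and 1218, 1175, 1006 and 1245 FPKM in lbSSC replicates 1 to 4. The lowest vSSC library lay above the highest lbSSC library. The means were 1573 ± 49.9 and 1161 ± 107.3 FPKM (SD, n = 4 each), 1.36-fold higher in vSSC. The fitted difference was 0.44 ± 0.11 (SE; 95% interval 0.20 to 0.69; adjusted p = 0.0159 by limma). Its size was at percentile 72.6 of the sizes of all tested genes. The spread of Mfge8 was 3.17% of the mean in vSSC and 9.25% in lbSSC, where replicate 3, at 1006 FPKM, was the lowest. By level it ranked 37 to 56 among all genes of a vSSC library and 45 to 62 in lbSSC, and it made up 0.264% to 0.312% of the summed FPKM in vSSC and 0.209% to 0.270% in lbSSC. The call was lost without lbSSC replicate 3 (0.38, adjusted p = 0.0569) and in the fit leaving out vSSC replicates 1 and 3 (0.48, 0.0760). It was also lost when the share of ribosomal protein genes entered the model (0.43, 0.0790). The same held with each library rescaled to one sum (0.29, 0.0614) and with quantile normalization (0.21, 0.177). In each case Mfge8 was still higher in vSSC. The ribosomal share itself was higher in vSSC, at 18.4% to 21.5% against 15.7% to 18.5%. The fit with it cannot tell this share and site apart, and its calls over all genes fell from 2518 to 623.

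Edil3 (ENSMUSG00000034488, chr13:88821472-89323223, plus strand), the paralog of Mfge8, was next below it in every library. It measured 104.8, 99.1, 110.4 and 96.8 FPKM in vSSC and 96.3, 107.6, 100.7 and 105.0 FPKM in lbSSC, in order of replicate. The ranges overlapped over most of their length, and the means were 102.7 ± 6.12 and 102.4 ± 4.96 FPKM. No difference was detected for Edil3, with an interval of -0.20 to 0.21 around 0.004 (adjusted p = 0.982), and the sign turned under each of the 3 other scalings, to between -0.24 and -0.08. Its rank by level was 784 to 819 in vSSC and 598 to 778 in lbSSC, ranges that did not overlap although the FPKM did.

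Within each library Mfge8 was 14.9, 16.3, 13.7 and 16.7 times the level of Edil3 in vSSC and 12.6, 10.9, 9.99 and 11.9 times in lbSSC. The groups did not overlap. Ratios within libraries were tested as log2 of (FPKM + 1) over (FPKM + 1), which depends little on the scaling of a library for abundant genes and shrinks the ratio of low ones. On that scale the mean was 3.92 ± 0.13 in vSSC and 3.49 ± 0.15 in lbSSC (SD, n = 4 each). The difference of 0.44 had an exact two-sided permutation p of 0.0286, the smallest that 4 against 4 libraries allow, and an adjusted p of 0.0381 over the 4 ratios tested. The ratio differed by more than the spread between libraries, and all 4 vSSC values were the higher.

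Gas6 (ENSMUSG00000031451, chr8:13465374-13494490, minus strand), the ligand of all TAM receptors, had the largest difference of the 7. It measured 5.15, 4.09, 4.14 and 5.10 FPKM in vSSC and 21.1, 18.96, 22.9 and 24.6 FPKM in lbSSC. Every vSSC library was below every lbSSC library by a wide gap. The means were 4.62 ± 0.583 and 21.9 ± 2.44 FPKM, 4.74-fold lower in vSSC. The fitted difference was -2.03 ± 0.13 (95% interval -2.31 to -1.74; adjusted p = 1.42e-06 by limma), and by size it was number 72 of the 10729 tested. Gas6 ranked 6823 to 7516 by level in vSSC and 2381 to 3333 in lbSSC. The call held in all 21 alternative fits, with differences of -2.24 to -1.85. An exon of Tmem255b on the opposite strand overlaps Gas6 exons over 34 bases, and the library kit does not mark strand, so reads there cannot be told apart. Tmem255b itself measured at most 0.752 FPKM in any library.

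Pros1 (ENSMUSG00000022912, chr16:62854307-62929346, plus strand), protein S, was the third in every library. It measured 31.7, 29.9, 36.4 and 30.0 FPKM in vSSC and 41.1, 39.5, 38.8 and 37.9 FPKM in lbSSC. The highest vSSC library, replicate 3, came within reach of the lowest lbSSC library without overlapping it. The means were 32.02 ± 3.07 and 39.3 ± 1.37 FPKM. The fitted difference of -0.29 ± 0.10 (95% interval -0.52 to -0.07) missed the threshold at an adjusted p of 0.0568 by limma. In 6 of 21 alternative fits it passed, for example when libraries were scaled by median of ratios (-0.37, adjusted p = 0.0132) or vSSC replicate 3 was left out (-0.35, 0.0418).

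The ligands of the TAM receptors differed in their proportion. Gas6 was 0.162, 0.137, 0.114 and 0.170 of the Pros1 level in the vSSC libraries and 0.512, 0.480, 0.590 and 0.651 of it in the lbSSC libraries. The mean log2 ratio of (FPKM + 1) was -2.56 ± 0.23 against -0.82 ± 0.19, a difference of -1.73 (exact permutation p = 0.0286, adjusted p = 0.0381). With 0.01 in place of 1 as the pseudocount, the difference was -1.94 with the same p. The groups did not overlap, so the site difference was larger for Gas6 than for Pros1. Gas6 was 12.7% ± 1.97 of the summed FPKM of both ligands in vSSC and 35.7% ± 3.16 in lbSSC. The sum itself was 36.6 ± 2.89 FPKM in vSSC and 61.2 ± 1.84 FPKM in lbSSC.

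Axl (ENSMUSG00000002602, chr7:25757273-25788705, minus strand) was the most abundant of the TAM receptors in every library. It measured 12.7, 12.3, 13.4 and 12.03 FPKM in vSSC and 19.2, 21.9, 21.3 and 17.6 FPKM in lbSSC. The groups did not overlap. The means were 12.6 ± 0.594 and 20.0 ± 1.95 FPKM, 1.59-fold lower in vSSC. The fitted difference was -0.62 ± 0.11 (95% interval -0.87 to -0.38; adjusted p = 0.00249 by limma), at percentile 86.1 by size. The call held in all 21 alternative fits, with differences of -0.76 to -0.58.

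Mertk (ENSMUSG00000014361, chr2:128698956-128802894, plus strand), the TAM receptor best known from phagocytes and the retinal pigment epithelium, did not pass. It measured 5.09, 6.48, 4.39 and 6.27 FPKM in vSSC and 6.55, 6.73, 7.56 and 6.31 FPKM in lbSSC. Replicate 2 of vSSC lay above replicate 4 of lbSSC, so the groups overlapped, and the vSSC libraries spread by 17.8% of their mean, the widest spread of the 7 genes. The difference was -0.26 ± 0.14 (95% interval -0.57 to 0.05; adjusted p = 0.204).

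Tyro3 (ENSMUSG00000027298, chr2:119797733-119818104, plus strand) was the lowest of the receptors by mean. It measured 5.13, 4.39, 3.77 and 4.89 FPKM in vSSC and 4.27, 4.85, 5.53 and 4.73 FPKM in lbSSC. The ranges overlapped, and no difference was detected (-0.08 ± 0.14, 95% interval -0.38 to 0.22, adjusted p = 0.706). The intervals of Mertk and Tyro3 leave room for differences of up to 0.57 and 0.38 below lbSSC.

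**Figure D2:**
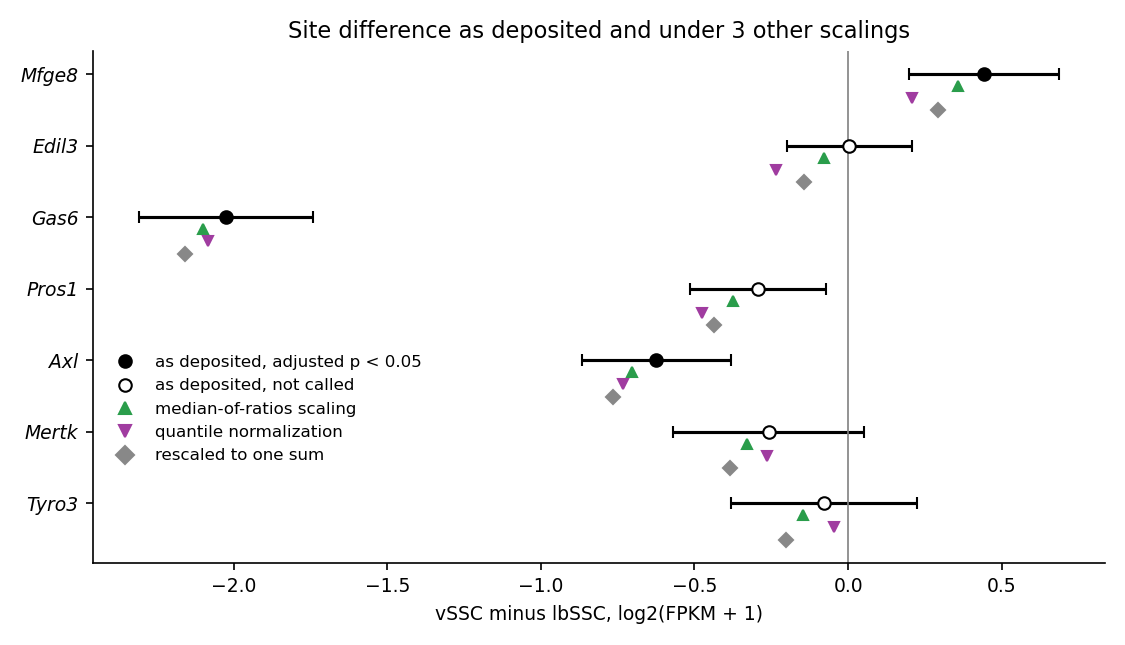
Difference of each gene on the log2(FPKM + 1) scale, vSSC minus lbSSC, with the 95% interval of the limma fit as bars; filled circles are called and open circles are not, and coloured markers give the same difference under 3 other scalings. Gas6 lies near -2 under each scaling, Mfge8 lies above 0 under each and loses its call under 2 of them, and Edil3 moves from 0.004 to below 0.

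The balance of the receptors was compared within libraries as well. Axl was 2.47, 2.79, 3.55 and 2.46 times the level of Tyro3 in vSSC and 4.50, 4.51, 3.85 and 3.72 times in lbSSC. The log2 ratio of (FPKM + 1) was 1.30 ± 0.21 against 1.84 ± 0.13, a difference of -0.55 (exact permutation p = 0.0286, adjusted p = 0.0381), with no overlap. Mertk was 0.991 to 1.47 times Tyro3 in vSSC and 1.33 to 1.53 times in lbSSC, ranges that overlapped. Its log2 ratio to Tyro3, also of (FPKM + 1), differed by -0.18 (0.24 ± 0.20 against 0.42 ± 0.07), with an exact permutation p of 0.171 (adjusted p = 0.171). Of the summed FPKM of the 3 receptors, 22.7 ± 0.779 in vSSC and 31.6 ± 2.72 in lbSSC, Axl made up 55.6% ± 4.596 and 63.2% ± 1.82. Mertk made up 24.4% ± 3.69 and 21.5% ± 0.908, and Tyro3 20.0% ± 2.186 and 15.3% ± 1.14.

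**Figure D3:**
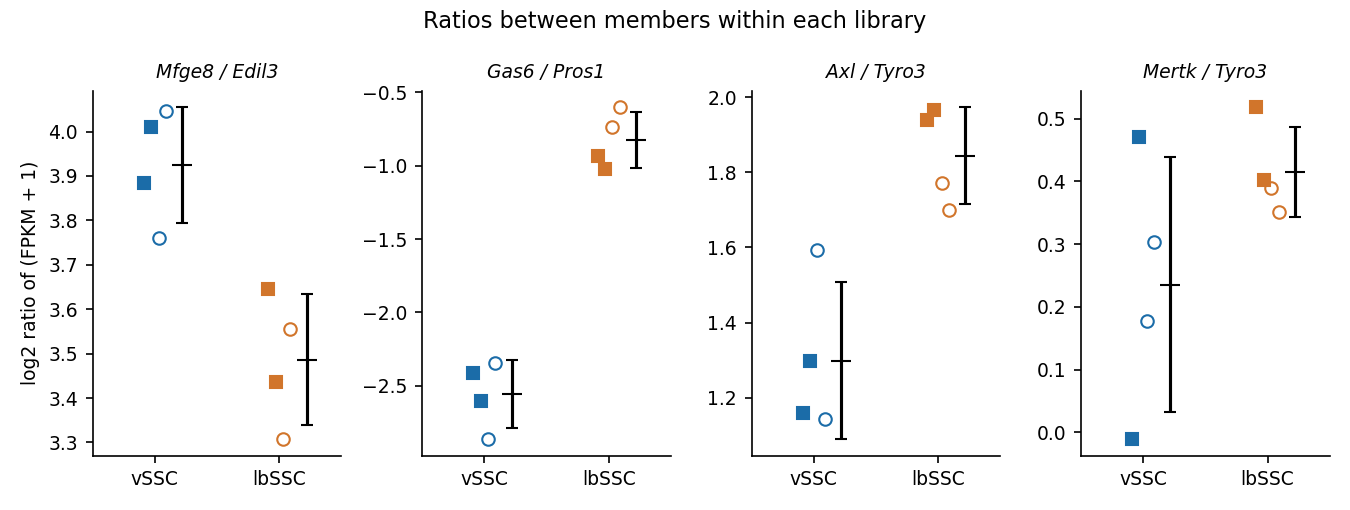
Ratios of the genes within each library as log2 of (FPKM + 1) over (FPKM + 1), each panel with an axis of its own; filled squares are male and open circles female libraries, blue for vSSC and orange for lbSSC, and bars give the mean ± SD of 4 libraries. The sites do not overlap for Mfge8 to Edil3, Gas6 to Pros1 and Axl to Tyro3, and they overlap for Mertk to Tyro3.

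The order of levels was the same at its upper end in every library, with Mfge8 at place 1, Edil3 at place 2 and Pros1 at place 3. In vSSC Axl followed in all 4 libraries, and the ranges of Mertk, Gas6 and Tyro3 below it overlapped, so these neighbours did not differ beyond their spread. In lbSSC Gas6 stood beside Axl, with overlapping ranges and Gas6 the higher in 3 of 4 libraries. Mertk was above Tyro3 in all 4 lbSSC libraries. Gas6 was the gene whose place varied most, from place 4 in 3 lbSSC libraries to place 7, the last, in vSSC replicate 2.

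No difference between male and female libraries was detected for any of the 7. With site as a covariate, limma called 0 of the 7 by sex and 0 of the 7 had an unadjusted p under 0.05, where 0.0466% of all tested genes, 5 in number, were called and 892 had an unadjusted p under 0.05. The largest difference between the sexes was that of Gas6, male minus female -0.12 ± 0.13 (adjusted p = 0.763), and Mfge8 differed by 0.06 ± 0.11 (0.881), a sign that turned under all 3 other scalings. Gas6 averaged 4.62 FPKM in vSSC against 20.0 in lbSSC among the 2 male libraries of each site, and 4.62 against 23.8 among the female ones. Mfge8 averaged 1585 against 1196 FPKM in males and 1561 against 1125 in females. The interaction of site and sex was called for 0 of the 7 and for 0% of all genes, with 405 of the 10729 at an unadjusted p under 0.05 and none of the 7 among them. Its largest values were 0.26 ± 0.29 for Tyro3 and 0.24 ± 0.26 for Gas6 (adjusted p = 0.981 for each by limma).

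Markers of other cell types were read beside these results, since macrophages are known for several of these genes. Of 8 macrophage markers, 6 were under 1 FPKM in every library. Aif1 was at 0 throughout, and Adgre1 (F4/80) and Csf1r reached at most 0.162 and 0.202 FPKM. The summed level of the list was 14.9 to 30.6 FPKM in vSSC and 7.98 to 12.5 in lbSSC, most of it Lyz2 and Cd14, which were both higher in vSSC. In the same libraries Mfge8 was higher, and Gas6 and Axl were lower. All 6 endothelial markers were under 1 FPKM in every library. Beside the counts of called markers below, 14.3% of all tested genes were called higher in vSSC and 9.17% lower. Neutrophil markers summed to 298.5 to 460.7 FPKM in vSSC and 29.9 to 134.0 in lbSSC, with 6 of 8 tested higher. Osteoclast markers fell in 3 of 3 tested, with Ocstamp, Dcstamp and Calcr under 1 FPKM, and their sum was 57.6 to 79.2 against 109.2 to 132.8 FPKM. Erythroid markers summed to 3817 to 5371 and 4282 to 8823 FPKM, and 2 of 7 fell. Of Schwann cell markers 3 of 4 tested were higher, with sums of 121.6 to 146.2 against 92.4 to 114.0 FPKM. Most of that sum was S100b, at 114.1 ± 5.39 against 103.0 ± 10.8 FPKM, which was not called (0.15 ± 0.10, adjusted p = 0.302 by limma). Skeletal stem and mesenchymal markers fell in 5 of 9, with sums of 145.2 to 271.6 against 210.7 to 277.9 FPKM. Osteoblast markers (1 higher, 2 lower of 7; sums of 917.6 to 1383 against 1029 to 2319 FPKM), chondrocyte markers (2 higher of 7) and pericyte markers (0 called of 2; 37.1 to 81.2 against 51.9 to 84.8 FPKM) completed the lists. The part of these cells in the differences of Mfge8, Gas6 and Axl was not tested.

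The wider pathway was followed in 8 lists holding 99 genes besides the 7. Of these, 64 were tested and 22 were called, 7 higher and 15 lower in vSSC, or 34.4% against 23.5% of all tested genes. The median difference of the 64 was -0.14. For the counts of each list below, the shares over all tested genes were 14.3% called higher in vSSC and 9.17% called lower. Called genes of the lists numbered 14 without lbSSC replicate 3 and 12 in the fit leaving out vSSC replicates 1 and 3. They numbered 10 with ribosomal protein share in the model (the ribosomal covariate). Over all tested genes the calls fell as well, from 2518 to 1534, 1095 and 623 in the same fits.

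The αv integrin subunits that receive Mfge8 and Edil3 were all measured. Of Itgav, Itgb3 and Itgb5, 2 fell in vSSC and none rose, with a median of -0.70, where 9.17% of all tested genes fell. Itgb5 ranged from 24.4 to 31.9 FPKM in vSSC and from 42.6 to 51.8 in lbSSC, without overlap, and its difference was -0.70 ± 0.11 (adjusted p = 0.00136). Itgb3 was at 0.808 ± 0.368 and 2.42 ± 0.630 FPKM, a difference of -0.92 ± 0.19 (0.00645), near the level of the filter in vSSC. Itgav, the shared αv chain, which lay outside the rule for named genes and was added after its values were seen, measured 20.3 ± 3.82 against 25.4 ± 2.62 FPKM (-0.33 ± 0.14, adjusted p = 0.115). The ligand Mfge8 was higher in vSSC and these β subunits were lower. The calls of Itgb3 and Itgb5 were lost with the ribosomal covariate (adjusted p = 0.201 and 0.0802), and that of Itgb3 also when vSSC replicates 1 and 3 were left out (0.0527).

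Other receptors and engulfment genes were in large part under 1 FPKM. Of 21 listed, 11 were under 1 FPKM in every library, including the phosphatidylserine receptors Timd4, Stab1, Stab2 and Adgrb1 and the phagocyte receptor Trem2, and Havcr1 was listed at 0. Of the 10 tested, 2 were higher and 4 lower, with a median of -0.48, where 14.3% of all tested genes were higher and 9.17% lower. The 6 called became 3 without lbSSC replicate 3 and 2 with the ribosomal covariate. Scarb1, the scavenger receptor for HDL that also binds phosphatidylserine, was higher in vSSC, at 82.8 ± 6.36 against 46.6 ± 5.76 FPKM (0.82 ± 0.11, adjusted p = 0.00047). Elmo1, a scaffold of the Rac activator at the phagocytic cup, was at 1.00 ± 0.0490 against 3.09 ± 0.732 FPKM (-1.02 ± 0.16, 0.00111). Ager was at 0.264 ± 0.239 against 1.79 ± 0.613 FPKM (-1.14 ± 0.20, 0.0027) and passed the filter only through lbSSC, so that it had to differ, and its call was lost with the ribosomal covariate (0.0799). Crk, an adaptor upstream of Rac, was higher (47.5 ± 5.16 against 35.1 ± 2.93 FPKM, 0.42 ± 0.11, 0.0189), a call lost in 5 of 21 alternatives.

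Among the other bridging proteins and opsonins the called genes were all higher in vSSC, 3 of 6 tested of 11 listed. The median was 0.47, and 14.3% of all tested genes were called higher. Lgals3 (galectin-3), a lectin that can act as a bridge to Mertk, ranged from 314.9 to 437.4 FPKM in vSSC and from 106.0 to 175.7 in lbSSC, and its difference was 1.49 ± 0.16 (adjusted p = 8.13e-05). Anxa5, which covers exposed phosphatidylserine, was at 576.5 ± 10.3 against 408.5 ± 50.6 FPKM (0.50 ± 0.11, 0.00844). Anxa1 was at 55.7 ± 9.43 against 39.1 ± 5.82 FPKM (0.49 ± 0.14, 0.0296), a call lost in 10 of 21 alternatives. The complement genes C1qa, C1qb and C1qc were under 1 FPKM in every library. Anxa5 lost its call with the ribosomal covariate (adjusted p = 0.196) and when vSSC replicates 1 and 3 were left out (0.0626).

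Scramblases and flippases, which expose or withdraw phosphatidylserine, changed in 1 of 11 tested of 15 listed, or 9.09% against 23.5% of all tested genes. Tmem30a (CDC50A), the subunit that flippases need to reach the membrane, was at 156.8 ± 21.4 against 108.8 ± 11.5 FPKM (0.52 ± 0.12, adjusted p = 0.0120). Its call was lost with the ribosomal covariate (adjusted p = 0.531) and when vSSC replicates 1 and 3 were left out (0.139), fits in which 0 genes of the list were called. The count was 2 when vSSC replicate 2, lbSSC replicate 1 or lbSSC replicate 4 was left out, and 3 with quantile normalization or the filter at 5 FPKM. The vitamin K cycle, which supplies the carboxylation that Gas6 and Pros1 need, had 6 of 6 genes tested and 0 called by limma. Vkorc1, the reductase that warfarin blocks, was at 805.0 ± 38.6 against 773.7 ± 97.9 FPKM (0.06 ± 0.12, adjusted p = 0.713), a sign that turned under the 3 other scalings. Ggcx, the carboxylase itself, was at 24.8 ± 1.40 against 26.9 ± 1.78 FPKM (-0.11 ± 0.10, 0.454). Gas6 was lower in vSSC, and no difference was detected in these genes of the cycle.

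Of the other Gla proteins, 7 of 14 were tested, and 1 rose and 1 fell. The share called, 28.6%, was near the 23.5% of all tested genes. In all, 1 was called when any library other than lbSSC replicates 1 and 4 was left out. Bglap (osteocalcin), the Gla protein of bone, was at 69.9 ± 31.5 against 206.9 ± 104.7 FPKM (-1.55 ± 0.37, adjusted p = 0.0123). Near-identical copies of it, Bglap2 and Bglap3, may share its reads. Bglap2 was at 118.8 ± 42.1 against 190.5 ± 81.8 FPKM, with overlapping groups, and was not called (-0.60 ± 0.36, adjusted p = 0.237 by limma). Ucma, the Gla-rich protein of cartilage, was at 2856 ± 183.2 against 2189 ± 212.3 FPKM (0.39 ± 0.12, 0.0404), a call lost in 14 of 21 alternatives. Downstream of the TAM receptors and in their shedding, 12 of 14 genes were tested and 2 fell. That share, 16.7%, was below the 23.5% of all tested genes called. In this list 1 was called when vSSC replicate 3 or 4 or lbSSC replicate 1, 2 or 3 was left out. Pik3r1, the regulatory subunit of phosphoinositide 3-kinase, was at 4.04 ± 0.260 against 9.41 ± 0.906 FPKM (-1.04 ± 0.12, adjusted p = 0.000164). Adam10, a protease that sheds Axl, was at 5.41 ± 0.714 against 8.40 ± 1.54 FPKM (-0.54 ± 0.16, 0.0289), a call lost in 8 of 21 alternatives.

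The called genes among the other discoidin domain proteins, which share that domain with Mfge8 and Edil3, were all lower in vSSC. Of 15 listed, 9 were tested, 6 of the tested fell in vSSC and none rose, with a median of -0.67. Over all tested genes, 9.17% were called lower. F5 did not pass the filter and went the other way. It ranged from 0.869 to 2.18 FPKM in vSSC and from 0.124 to 0.372 in lbSSC, without overlap. The 5 other untested genes were under 1 FPKM in every library. Cpxm1 ranged from 3.15 to 10.5 FPKM in vSSC and from 32.7 to 51.4 in lbSSC (-2.35 ± 0.29, adjusted p = 0.000242), and Cpxm2 was at 10.8 ± 2.70 against 30.8 ± 4.04 FPKM (-1.45 ± 0.18, 0.000217). Both encode carboxypeptidase-like secreted proteins. Nrp2, a co-receptor of semaphorins and VEGF, was at 3.69 ± 0.198 against 9.58 ± 1.11 FPKM (-1.17 ± 0.13, 9.48e-05), and Ddr2, a collagen receptor, was at 14.7 ± 1.70 against 24.0 ± 2.70 FPKM (-0.67 ± 0.12, 0.0032). Of these, Ddr2 lost its call with the ribosomal covariate (adjusted p = 0.0774), and Cpxm1, Cpxm2 and Nrp2 kept theirs in all 21 alternatives.

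**Figure D4:**
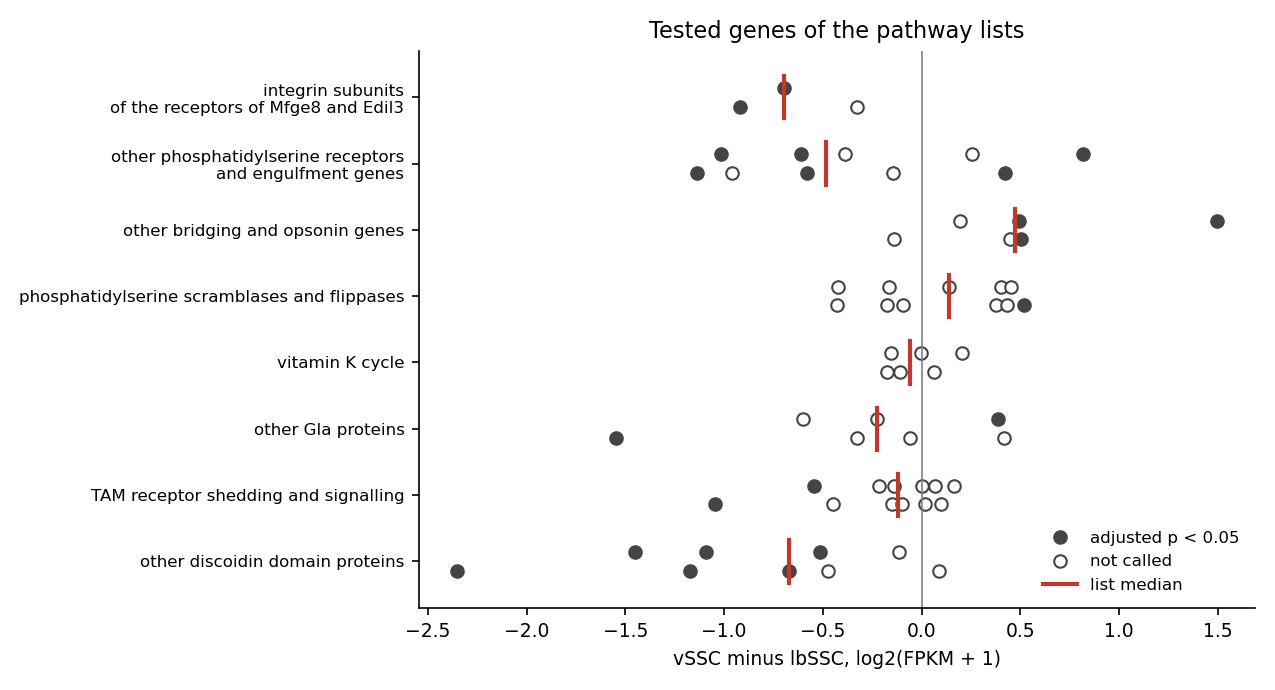
Difference of each tested gene of the 8 pathway lists on the log2(FPKM + 1) scale, vSSC minus lbSSC, with filled circles for called genes, open circles for genes not called and a red bar for the median of the list. The called bridging and opsonin genes lie above 0, with Lgals3 at 1.49, and the called integrin and discoidin genes lie below 0, with Cpxm1 at -2.35.

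Genes most like Mfge8 and Edil3 across the libraries were taken by Pearson's r on log2(FPKM + 1). These are descriptions over 8 libraries that share the site difference. Among the nearest to Mfge8 were Hoxd9 (0.992), the monocarboxylate transporter Slc16a1 (0.988), Tfpi (0.977) and Mterf3 (0.977), and 26 genes exceeded 0.95. With the mean of each site removed, Sardh (0.974), Hoxd9 (0.967), Klhl21 (0.956), Ranbp3 (0.946) and Zfp869 (0.935) were nearest. For Edil3 no gene exceeded 0.95, and Magee1 (0.937), Slc17a5 (0.871), Azin2 (0.864), Fbxo36 (0.860) and Nup54 (0.853) were nearest. Among the 7 genes, Mfge8 and Axl had an r of -0.96 over all libraries and -0.69 with the site means removed, and for Mfge8 and Gas6 it went from -0.92 to 0.02. Gas6 and Axl, both lower in vSSC, had an r of 0.93 over all libraries and -0.58 with the site means removed.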

How the data were processed

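The authors deposited 1 table of FPKM for protein-coding genes. The submitters' processing notes name bcl2fastq 2.19, Cufflinks 2.1.1, STAR 2.5.2 and the build GRCm38, and no settings. Libraries were prepared with SMART-Seq v4 followed by Nextera XT, per the labels' protocols, a chemistry that does not mark strand. FPKM is relative to the total of each library, so a gain in abundant genes lowers all others. Read totals are not given, and the steps that single reads leave in low values did not give absolute depth, so precision rests on the replicates. All rows were kept, 40 of which carry a low-data status, and no pair of libraries held identical values.

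Values were tested as log2(FPKM + 1) with limma 3.58.1 (empirical Bayes, variance trend) in R 4.3.3, on 10729 genes with at least 1 FPKM in at least 4 of 8 libraries. Site was fitted with no covariate, sex with site, and their interaction, with Benjamini-Hochberg adjustment over all genes tested. A count test was not used, as FPKM are not counts. The 4 ratios within libraries were tested with an exact permutation test over samples in Python 3.11.15 with SciPy 1.17.1. The fits were tested on simulated data. The 7 genes, the 8 pathway lists, the 11 marker lists and the tests were chosen with earlier results of these data known. Named genes are the 7, up to 4 called genes with the smallest p in each list (or the 2 most abundant where none was called), the sorting gate, and the 5 genes most like Mfge8 and Edil3; some genes so chosen are not reported here. Alternatives were 2 other pseudocounts, 2 other filters, 3 scalings, no variance trend, library weights, sex, replicate number or ribosomal protein share in the model, and libraries left out. Promoters are from RefSeq (GRCm38.p6), matched by symbol.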

Additional observations from a re-analysis of the deposited data

How the results depend on the processing

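Of 21 alternative fits of the site difference, all kept the call and direction of Gas6 (adjusted p 6.77e-07 to 0.000334) and Axl (0.000315 to 0.0221), and none called Mertk (-0.39 to -0.007). Mfge8 stayed higher in vSSC in all 21 and missed the threshold in 5: quantile normalization (0.21), rescaling to one sum (0.29), the ribosomal protein share as a covariate (0.43), without vSSC replicates 1 and 3 (0.48), and without lbSSC replicate 3 (0.38; 0.38 to 0.48 over single libraries left out, adjusted p 0.0187 to 0.0569). Edil3 turned negative with median-of-ratios scaling (-0.080), quantile normalization (-0.24), one sum (-0.14), library weights (-0.017), the ribosomal covariate (-0.065), and without vSSC replicates 1 and 3 (-0.063), and ran from -0.031 to 0.032 with single libraries left out. Pros1 passed with no filter (-0.29, adjusted p = 0.0426), median-of-ratios scaling (-0.37), quantile normalization (-0.48, 0.00249), one sum (-0.44), library weights (-0.33), and without vSSC replicate 3 (-0.35); it ran from -0.35 to -0.26 with single libraries left out. Tyro3 turned to 0.082 with the ribosomal covariate. Vkorc1 turned to -0.020, -0.15 and -0.084 under the 3 scalings and to -0.14 with that covariate, and ran from -0.0073 to 0.14 with single libraries left out. The sex difference of Mfge8 turned to -0.0068, -0.032 and -0.025 under the 3 scalings and ran from -0.0094 to 0.11. The cause was not tested.

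Over all genes, 2518 were called, 623 with the ribosomal covariate, 1095 without vSSC replicates 1 and 3, and 1534 to 2991 with single libraries left out (1673 and 1646 when vSSC replicate 1 or 3 was the library left out, and 1534 and 1589 when it was lbSSC replicate 3 or 4). Of the 7 genes 2 to 4 were called. In the pathway lists 22 were called, 10 with that covariate, 12 without vSSC replicates 1 and 3 and 14 to 22 with single libraries left out. For the interaction 1 gene was called without vSSC replicate 4 and 0 to 1 over all. Genes called higher and lower numbered 1534 and 984 as deposited, 1274 and 1183 with median-of-ratios scaling, 1095 and 1095 with quantile normalization, and 1002 and 1363 with one sum, which moved the median of all genes by -0.13. Relative to the median of all genes in the same fit, Mfge8 was at 0.36 as deposited, 0.35 with median-of-ratios scaling, 0.18 with quantile normalization and 0.34 with one sum, Gas6 at -2.11 in each, and Axl at -0.71, -0.71, -0.76 and -0.72. For 25 other differences of named genes, 443 of 498 values kept direction and call, 46 lost the call and 9 turned sign.

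Same-numbered libraries of the 2 sites deviated from their group means with r of 0.26, -0.08, -0.06 and 0.44. In these deviations vSSC replicates 1 and 4 were most like the lbSSC libraries of the same number. Replicates 2 and 3 of vSSC were most like lbSSC replicates 4 and 1. The labels state no shared litter or day, so whether the numbers pair the samples is not known. With the replicate block limma called 3194 genes, against 2518 without it, and the same number of the 7, 3. The ratios kept their values under the block (0.44 for Mfge8 to Edil3, -1.73 for Gas6 to Pros1, -0.55 for Axl to Tyro3), with an exact sign-flip p of 0.125, the smallest that 4 pairs allow. Not run were the sex comparison with the block, since number and sex are nested, and Tyro3 under the filter at 5 FPKM, which it did not pass.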
